A study of Mus musculus with 5 samples.

Results

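The metalloproteinase genes described here are the matrix metalloproteinases (MMPs), the ADAMTS and ADAMTS-like genes, the tissue inhibitors of metalloproteinases (TIMPs) and Reck. They were chosen by symbol alone, as every gene of the table whose symbol had the form Mmp, Adamts, Adamtsl or Timp followed by its number, together with Reck, which gave 52 of 23337 genes. RNA was measured by poly-T selected sequencing in mouse embryonic fibroblasts of strain 129Sv, immortalized with the SV40 T antigen and grown under normal conditions. There were 2 libraries labelled KO, with the genotype SIRT3 -/-, and 3 libraries labelled WT, with the wild-type genotype, and the study asked how cells without the mitochondrial deacetylase SIRT3 differ. Immortalization with the SV40 T antigen was common to both genotypes. No label states that the libraries of one genotype are from separate cultures, and p-values therefore measure only how far these libraries spread, which may be a technical matter. A difference between genotypes cannot be told apart from one between lines.

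MMPs are zinc proteases that are made as inactive precursors and, once activated, cut collagens, proteoglycans and other matrix proteins, as well as growth factors and receptors at the cell surface. TIMPs bind the active site of these enzymes and block it, so the balance of MMPs and TIMPs sets how fast fibroblasts turn over the matrix around them. The ADAMTS enzymes are related secreted proteases that cut aggrecan and versican, trim procollagens or act on microfibrils, and the ADAMTS-like proteins share their binding modules but have no protease domain.

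A group of 10 MMP genes lies within 427.1 kb of chromosome 9 and includes collagenases and stromelysins. Most of their promoters held 1 set of letters that no other member's promoter had, among those that could be matched. RefSeq promoter sequences of build GRCm38.p6, from 250 bases before to 50 bases after the start of transcription, were matched for 37 of the 52 members by symbol. Mmp2, Mmp9, Mmp16, Mmp17 and Mmp19 were among the members without a match, so nothing is said of their promoters. The letters TGANTCA, which the transcription factor AP-1 binds and which read alike on both strands, were found in 8 of the 10 promoters of the chromosome 9 group and in 0 of the 27 other members' promoters, against 7.81% of 32851 promoters. TATAAA, searched on both strands, was found in 9 of the 10 and in 3 of the 27, against 13.6% of all promoters, and both sets of letters occurred in 8 of the 10, against 1.54% of all promoters. The NF-kB motif, also searched on both strands, was found in 0 of the 37 promoters, against 1.63% of all. The 6 windows below run from 100 bases before the start to 20 bases from it, 5′ to 3′ on the strand of the gene. They are shown because 4 of these genes (Mmp3, Mmp10, Mmp13 and Mmp1b) had enough reads to be compared between the lines while Mmp1a and Mmp7, with the same pair of letters, did not. Capitals mark TGANTCA and TATAAA.
Mmp3 promoter, chr9:7445722-7445841, plus strand: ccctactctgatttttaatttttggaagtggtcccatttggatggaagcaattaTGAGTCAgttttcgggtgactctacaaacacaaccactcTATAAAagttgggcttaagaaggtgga
Mmp10 promoter, chr9:7502242-7502361, plus strand: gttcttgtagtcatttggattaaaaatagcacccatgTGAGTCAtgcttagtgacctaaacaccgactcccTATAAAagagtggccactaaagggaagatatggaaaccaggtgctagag
Mmp13 promoter, chr9:7272414-7272533, plus strand: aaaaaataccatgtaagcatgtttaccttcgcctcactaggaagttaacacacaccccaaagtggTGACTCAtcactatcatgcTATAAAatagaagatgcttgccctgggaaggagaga
Mmp1b promoter, chr9:7388007-7388126, minus strand: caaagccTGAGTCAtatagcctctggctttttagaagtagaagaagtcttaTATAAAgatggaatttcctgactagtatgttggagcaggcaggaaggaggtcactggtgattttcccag
Mmp1a promoter, chr9:7464041-7464160, plus strand: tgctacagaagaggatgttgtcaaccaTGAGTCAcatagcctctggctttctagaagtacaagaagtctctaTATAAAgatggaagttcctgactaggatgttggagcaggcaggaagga
Mmp7 promoter, chr9:7691990-7692109, plus strand: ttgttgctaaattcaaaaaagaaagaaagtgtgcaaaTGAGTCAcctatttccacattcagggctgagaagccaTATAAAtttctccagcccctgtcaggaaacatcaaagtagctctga

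In these 6 windows the first base of the AP-1 letters lay 46 bases before the start in Mmp3, 63 in Mmp10, 35 in Mmp13, 93 in Mmp1b, 73 in Mmp1a and 63 in Mmp7. Mmp13 had the form TGACTCA and the other 5 had TGAGTCA. A match describes the letters of this window and is not a site that any factor was shown to bind.

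The reads recovered from the deposited values came to between 33473103 and 41758681 per library. Levels are given as RPKM (reads per kilobase of transcript, with the size of the library taken into account), which the authors deposited and which can be compared between genes, and differences come from limma on log2(normalized read count + 1), as KO minus WT, with p-values adjusted over the 13062 genes tested and a call at an adjusted p under 0.05. Sirt3, the targeted gene, had normalized read counts of 200.4 and 216.8 under the KO label, against 169.7, 149.4 and 118.4 in the WT libraries. Its transcript was thus higher under the KO label (log2 fold change 0.53, SE 0.152, adjusted p = 0.0044), which goes against the label at the level of RNA. The position of the deletion is not given in the sources used here, so this count over the whole gene cannot settle the genotype. The libraries are therefore called labelled KO throughout. The Sirt3 call was lost without KO replicate 2 (adjusted p = 0.0769) and with the median of its chromosomal neighbours taken off (log2 fold change 0.21, adjusted p = 0.238). Summed RPKM of 12 fibroblast markers ran from 4912 to 5026 in the libraries labelled KO and from 5708 to 5904 in the WT libraries, while Lum and Fap were under 0.1 RPKM in all 5. Single markers, named after their values were seen, differed far more than this sum: Pdgfra (log2 fold change -4.00), Dcn (-2.35) and Col3a1 (-2.25) were lower, as were the abundant Vim (-0.38) and S100a4 (-0.46), and Col1a1 (0.38) and Col1a2 (0.58) were higher. The S100a4 value was -0.25 without KO replicate 2, and Col1a2 was at -0.03 (adjusted p = 0.578) with its neighbours' median taken off. Of these 12 markers 10 were tested, 2 were higher and 6 were lower, beside 32.6% higher and 32.6% lower of all genes tested. The part of these markers in the members' differences was not tested.

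The difference between the lines touched most of the expressed members, and more of them fell than rose under the KO label. Of the 52 members, 6 were at 0 in all libraries, 11 had too few reads to be tested and 35 passed the filter of 10 normalized read counts in at least 2 libraries. Among these 35, 30 were called, or 85.7%, against 65.3% of all genes tested. There were 11 higher members (31.4%, against 32.6% of all genes) and 19 lower members (54.3%, against 32.6%). The groups' values were free of overlap in 32 of the 35 (91.4%, against 75.4%), and 11 were called with at least a 2-fold difference (31.4%, against 13%). The median log2 fold change was -0.45 over the 35 members and -0.0023 over all genes tested. Of the 35, Mmp23 passed the filter only through the KO group and Adamts16 only through the WT group, where each was high. Both were called, so the shares called are a description. The counts of each family below stand beside the same shares of all genes.

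**Figure D1:**
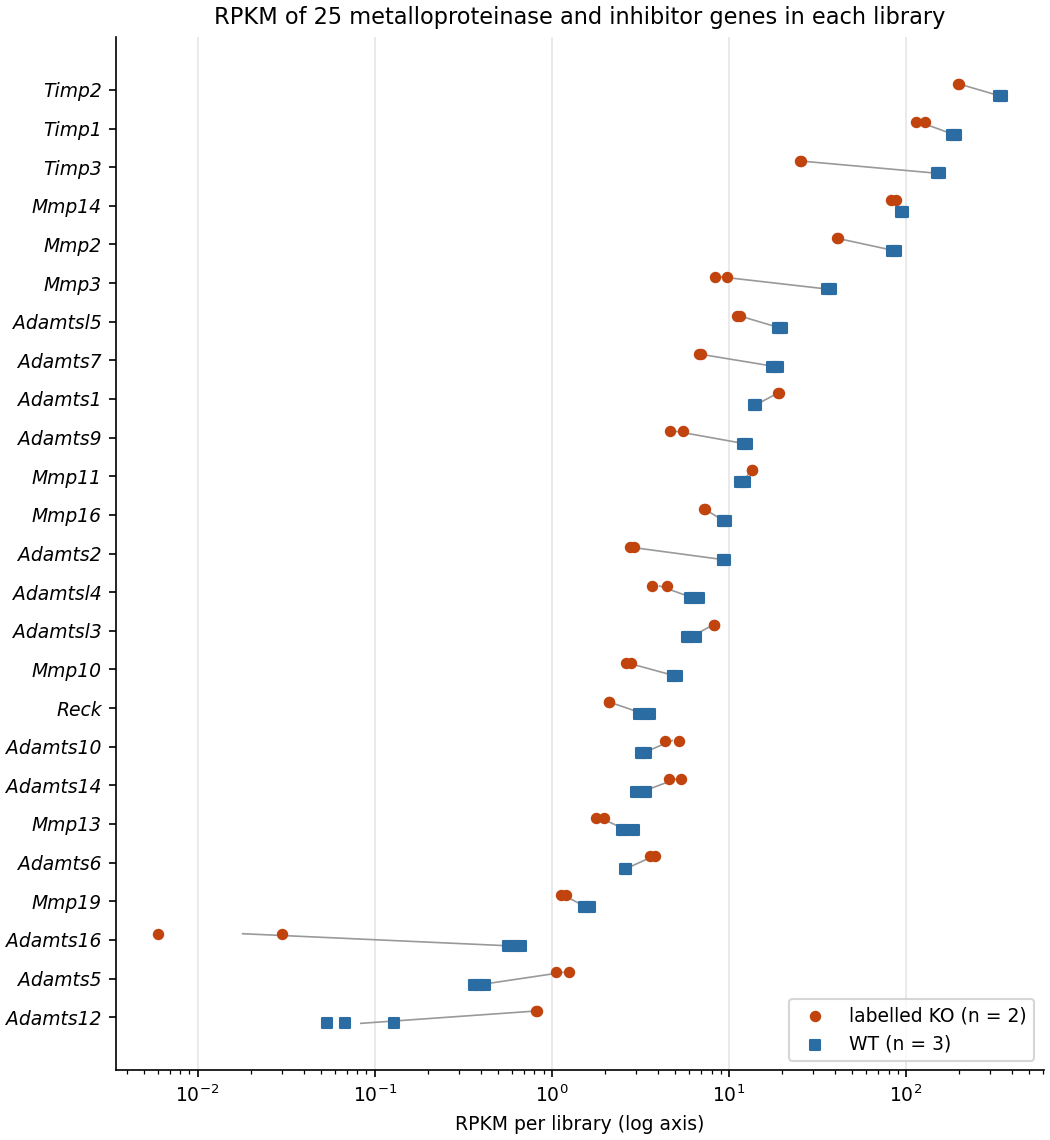
RPKM per library on a log axis for 25 members (those at 1 RPKM or more in either group and those with the smallest adjusted p), with labelled KO as orange circles (n = 2) above WT as blue squares (n = 3) and a line joining the group means. The members span from 0.0060 RPKM for Adamts16 to 348 RPKM for Timp2, with Timp1, Timp2, Timp3, Mmp14, Mmp2 and Mmp3 at the top. The groups lie apart for each of the 25, which were partly chosen by adjusted p, so this is a description. Of the 35 members tested, 32 had no overlap, against 75.4% of all genes tested.

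The inhibitors were lower in the libraries labelled KO, with a median log2 fold change of -0.73, and Timp3 fell furthest. All 4 that could be tested (Timp1, Timp2, Timp3 and Reck) were lower, against 32.6% of all genes tested. Tested genes within 5 Mb of Timp2 and Timp3 were also lower, at median log2 fold changes of -0.36 and -0.27. Timp3, whose protein stays bound to the extracellular matrix and also inhibits ADAM17 and the aggrecanases, was at 25.2 and 25.7 RPKM in the libraries labelled KO, against 151, 157 and 150.3 RPKM in the WT libraries. The groups lay far apart, and the WT level was 5.98-fold that of the libraries labelled KO (log2 fold change -2.58, SE 0.0371, adjusted p = 9.8e-23). Timp2, which blocks MMP2 and also helps MMP14 to activate it, was at 196 and 199.96 RPKM in the libraries labelled KO, against 335, 348 and 346 RPKM in the WT libraries. All 3 WT libraries were above both labelled KO (log2 fold change -0.79, SE 0.0378, adjusted p = 8.0e-14).

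Timp1, a soluble inhibitor of most secreted MMPs, was at 128 and 114 RPKM in the libraries labelled KO, against 193, 190 and 182 RPKM in the WT libraries. Its groups did not overlap either (log2 fold change -0.63, SE 0.0457, adjusted p = 7.7e-11). Reck, a membrane-anchored glycoprotein that restrains MMP2, MMP9 and MMP14, was expressed at a far lower level, at 2.10 and 2.11 RPKM in the libraries labelled KO, against 3.43, 3.10 and 3.58 RPKM in the WT libraries. The libraries labelled KO were the lower ones for Reck as well (log2 fold change -0.67, SE 0.0888, adjusted p = 9.8e-07). Timp4 had 1 read in WT replicate 3 and 0 in the other 4 libraries, so no difference was detectable at this depth. Since the cells were sequenced in bulk, fewer cells that make a transcript and less of it per cell cannot be told apart here or below.

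Of the exonic bases of Timp3 on chromosome 10 (chr10:86300412-86349505 in GRCm38.p6), 21.3% are shared with Syn3, a neuronal synapsin gene on the opposite strand that spans it, and whether the reads were counted by strand is not given in the sources used here. Syn3 had normalized read counts of 70.5 and 85.6 under the KO label, against 156, 122 and 137 in the WT libraries (log2 fold change -0.82). Reads of the pair cannot be fully told apart, but the counts for Syn3 were far below those for Timp3. Timp3 had 4345.5 and 4491.5 normalized read counts under the KO label, against 26163, 27101 and 25982 in the WT libraries. Timp1 (chrX:20870166-20874737) lies inside Syn1 with 0 shared exonic bases, and Syn1 was higher in the libraries labelled KO (log2 fold change 1.24), the opposite direction to Timp1.

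Summed over the 4 genes, TIMP transcripts came to 345 ± 7.33 RPKM in the libraries labelled KO (SD, n = 2) and 684 ± 8.94 RPKM in the WT libraries (SD, n = 3). The make-up of this pool differed too. Timp3 was 7.39 ± 0.262% of it in the libraries labelled KO and 22.3 ± 0.191% in the WT libraries, whereas Timp1 was 35.1 ± 2.24% under the KO label and 27.5 ± 0.80% in the WT libraries. Timp2 was 57.5 ± 1.98% of it under the KO label and 50.1 ± 0.837% in the WT libraries. Timp2 was the most abundant TIMP transcript in all 5 libraries.

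**Figure D2:**
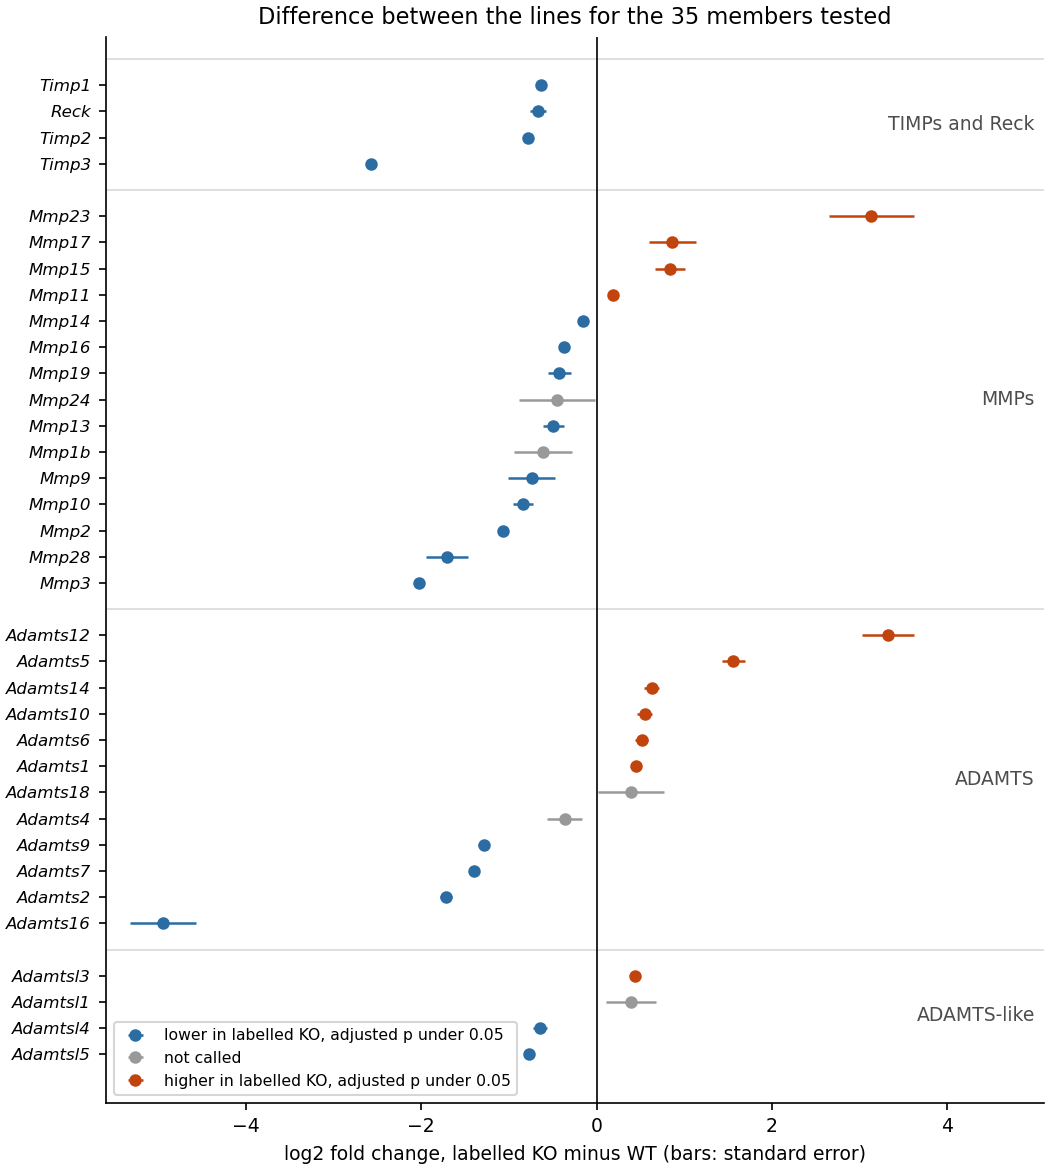
The log2 fold change (labelled KO minus WT) of each of the 35 tested members, with its standard error as a bar, ordered within the inhibitors, MMPs, ADAMTS and ADAMTS-like genes. All 4 inhibitors lie left of 0, most MMPs do, and the ADAMTS genes stand on both sides, from Adamts12 at 3.32 to Adamts16 at -4.95.

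Among the MMPs, 15 of 23 genes were tested, 9 were lower, 4 were higher and 2 were not called in the libraries labelled KO, with a median log2 fold change of -0.45. Over all genes tested, 32.6% were lower and 32.6% higher. Both gelatinases, which degrade denatured collagen and basement membrane collagen, were lower. Mmp2 (chr8:92827290-92853421), the main gelatinase of fibroblasts, was at 41.3 and 40.7 RPKM in the libraries labelled KO, against 87.0, 88.0 and 84.0 RPKM in the WT libraries. The WT level was 2.10-fold the level under the KO label, with no overlap (log2 fold change -1.07, SE 0.0380, adjusted p = 4.1e-16). Mmp9, the gelatinase of leukocytes and of activated cells, stayed under 0.5 RPKM, at 0.238 and 0.237 RPKM in the libraries labelled KO, against 0.427, 0.324 and 0.479 RPKM in the WT libraries (log2 fold change -0.74, SE 0.267, adjusted p = 0.0194). The Mmp9 call was lost in 7 of the 15 alternatives that gave it a value, among them leaving out either KO replicate, WT replicate 1 or WT replicate 3 (adjusted p between 0.059 and 0.09).

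The membrane-type MMPs, which work at the cell surface, did not move together: of 5 tested, 2 were higher, 2 were lower and 1 was not called. All genes tested gave 32.6% higher and 32.6% lower. Mmp14, which cuts collagen I directly and activates the MMP2 precursor, was at 82.8 and 87.8 RPKM in the libraries labelled KO, against 95.1, 97.1 and 93.8 RPKM in the WT libraries. Its groups did not overlap, but the difference was 1.11-fold (log2 fold change -0.15, SE 0.0396, adjusted p = 0.0018), and without KO replicate 1 the log2 fold change was -0.10. Mmp16, a relative of Mmp14 that also activates the MMP2 precursor, was at 7.21 and 7.31 RPKM in the libraries labelled KO, against 9.26, 9.62 and 9.43 RPKM in the WT libraries, with no overlap (log2 fold change -0.37, SE 0.0531, adjusted p = 2.8e-06).

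Mmp15 and Mmp17 went the other way. Mmp15, a transmembrane collagen-cutting enzyme, was at 0.970 and 1.02 RPKM in the libraries labelled KO, against 0.537, 0.669 and 0.480 RPKM in the WT libraries (log2 fold change 0.84, SE 0.173, adjusted p = 2.2e-04). Mmp17, which is held in the membrane by a lipid anchor, was at 0.480 and 0.358 RPKM in the libraries labelled KO, against 0.247, 0.230 and 0.201 RPKM in the WT libraries (log2 fold change 0.86, SE 0.267, adjusted p = 0.0074). Neither pair of groups overlapped, and the Mmp17 call was lost without KO replicate 1 (adjusted p = 0.0827). Mmp24 was near 0.1 RPKM and overlapped between the groups, and Mmp25 had 3 reads in each library labelled KO and 0 in the WT libraries, too few to test.

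The stromelysins, which cut proteoglycans and fibronectin and activate other MMPs, included the MMP with the largest called fall, Mmp3. Mmp3 was at 9.73 and 8.37 RPKM in the libraries labelled KO, against 35.7, 37.2 and 38.0 RPKM in the WT libraries. The WT level was 4.07-fold the level under the KO label (log2 fold change -2.03, SE 0.0611, adjusted p = 2.5e-17). Mmp10, a close relative that lies in the same chromosome 9 group, was at 2.82 and 2.64 RPKM in the libraries labelled KO, against 4.86, 5.09 and 4.82 RPKM in the WT libraries. It was lower as well, by a smaller fold (log2 fold change -0.84, SE 0.111, adjusted p = 1.0e-06). Mmp11, which is activated inside the cell by furin, was at 13.5 RPKM in both libraries labelled KO, against 11.6, 12.4 and 11.8 RPKM in the WT libraries. This small rise (log2 fold change 0.18, SE 0.0605, adjusted p = 0.0109) lost its call without KO replicate 2 (adjusted p = 0.05004).

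Of the 4 collagenase genes, Mmp13 was lower, Mmp1b was not called and Mmp1a and Mmp8 were too low to test. Mmp13, the main collagenase of mouse connective tissue, was at 1.99 and 1.77 RPKM in the libraries labelled KO, against 2.56, 2.50 and 2.92 RPKM in the WT libraries (log2 fold change -0.49, SE 0.121, adjusted p = 0.0012). Its groups did not overlap. Mmp1b was at 0.329 and 0.283 RPKM in the libraries labelled KO, against 0.5996, 0.616 and 0.289 RPKM in the WT libraries, where replicate 3 lay between the libraries labelled KO (log2 fold change -0.61, SE 0.334, adjusted p = 0.115). Without WT replicate 3, Mmp1b was called lower (log2 fold change -0.96, adjusted p = 0.0113).

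Mmp3, Mmp10, Mmp13 and Mmp1b belong to the chromosome 9 group of which 6 promoters are printed above. Of its 10 genes, 3 were lower (Mmp3, Mmp10 and Mmp13) and 1 was tested and not called (Mmp1b). Since 65.3% of all genes tested were called and 32.6% were lower, these counts of few genes are a description. Mmp12 and Mmp1a had 4 and 12 reads in all 5 libraries together, and Mmp7, Mmp8, Mmp20 and Mmp27 were at 0. In 8 of the 10 the promoter held the AP-1 letters, and those 8 included genes at 37.0 RPKM in the WT libraries (Mmp3) and genes with 0 reads (Mmp7 and Mmp20). Mmp3, Mmp10, Mmp13 and Mmp1b each had 19 other tested genes within 5 Mb, with a median log2 fold change of -0.0048. Those 19 include the other tested genes of the group. Of the 50-base words of the Mmp3 transcript, 8.39% also occurred in another gene, most often Mmp10, and for Mmp1b the share was 11.8%, most often Mmp1a, so the split of reads within these pairs depends on how shared reads were counted, which is not given in the sources used here.

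**Figure D3:**
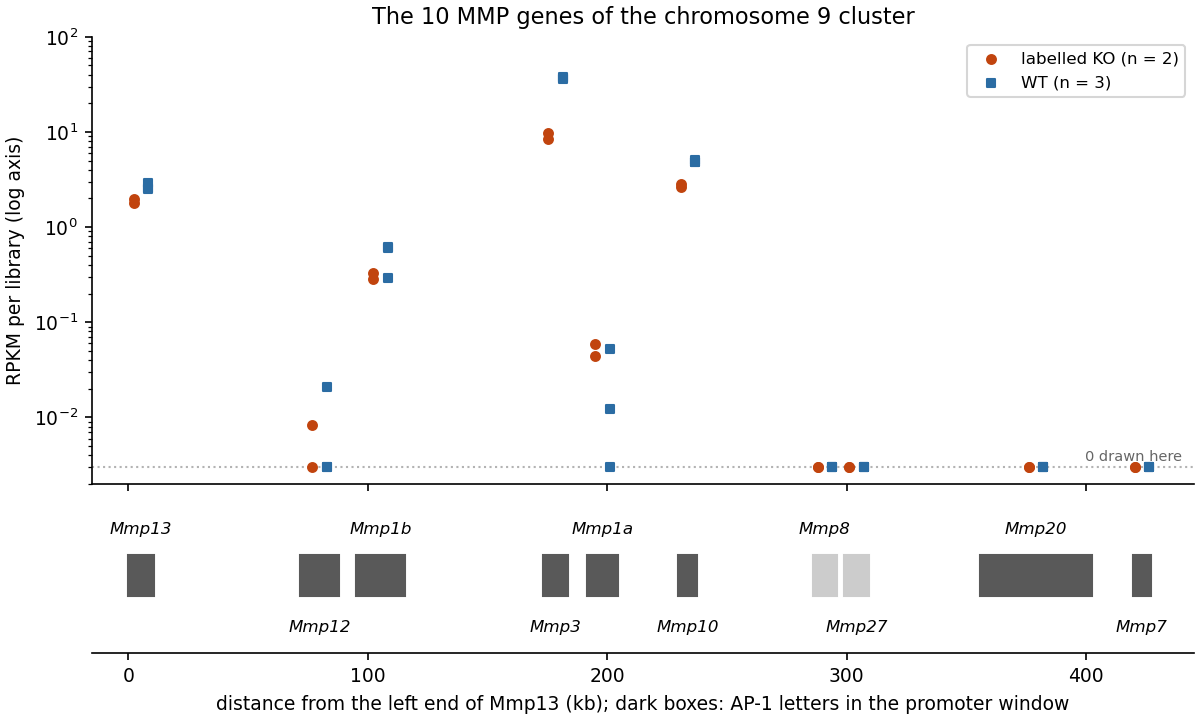
RPKM per library on a log axis for the 10 MMP genes of the chromosome 9 group, placed by distance from the left end of Mmp13 in kb, with labelled KO as orange circles (n = 2) left of WT as blue squares (n = 3) and values of 0 drawn on the dotted line. Boxes below give the extent of each gene, dark where the promoter window held the AP-1 letters. Mmp3, Mmp10 and Mmp13 stand highest, each lower in the libraries labelled KO, and 4 of the 10 genes were at 0.

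The last MMPs tested were low. Mmp28, an MMP of skin and healing wounds, was at 0.246 and 0.322 RPKM in the libraries labelled KO, against 0.870, 1.03 and 0.954 RPKM in the WT libraries, and the WT level was 3.27-fold the level under the KO label (log2 fold change -1.71, SE 0.235, adjusted p = 1.7e-06). Mmp19 was at 1.12 and 1.21 RPKM in the libraries labelled KO, against 1.55, 1.66 and 1.53 RPKM in the WT libraries (log2 fold change -0.43, SE 0.130, adjusted p = 0.0066). DESeq2 on the reads of 4 libraries did not call Mmp19 (adjusted p = 0.112), but the authors' deposited DESeq2 comparison did (adjusted p = 0.0355). Of the exonic bases of Mmp19, 28.3% are shared with genes on the opposite strand. Mmp23, a membrane-bound MMP without the usual hemopexin domain, was at 0.771 and 0.727 RPKM in the libraries labelled KO, against 0.117, 0.0373 and 0.0699 RPKM in the WT libraries. These values rest on 72 reads under the KO label and 13 in the WT libraries, a depth-corrected ratio of 9.88 (95% exact interval 5.43 to 19.4, counting error only), and Mmp23 was called higher (log2 fold change 3.13, adjusted p = 8.6e-06). In the authors' deposited table its log2 fold change was 1.89. Mmp23 passed the filter only through the KO group, where it was high, so its call is a description.

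Summed over the 23 genes, MMP transcripts came to 165 ± 2.01 RPKM in the libraries labelled KO (SD, n = 2) and 252 ± 4.07 RPKM in the WT libraries (SD, n = 3). The collagenases, gelatinases and stromelysins together came to 68.7 ± 1.67 RPKM in the libraries labelled KO and 144 ± 2.12 RPKM in the WT libraries, while the membrane-type MMPs came to 94.1 ± 3.55 RPKM under the KO label and 106 ± 1.88 RPKM in the WT libraries. Mmp14 thus made up 51.7 ± 1.51% of the MMP transcripts in the libraries labelled KO and 37.8 ± 0.152% in the WT libraries. Mmp2 made up 24.8 ± 0.552% in the libraries labelled KO and 34.3 ± 0.486% in the WT libraries, and Mmp3 made up 5.49 ± 0.647% under the KO label and 14.7 ± 0.525% in the WT libraries.

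Both pools were lower in the libraries labelled KO, the inhibitors by more. The ratio of summed MMP to summed TIMP RPKM was 0.468 and 0.491 in the libraries labelled KO, against 0.369, 0.370 and 0.367 in the WT libraries, with no overlap. Single pairs differed in direction. Mmp14 over Timp2, the pair that activates the MMP2 precursor, was at 0.431 ± 0.0122 in the libraries labelled KO and 0.278 ± 0.00642 in the WT libraries. Mmp2 over Timp2 was lower in the libraries labelled KO, at 0.207 ± 0.00479 against 0.252 ± 0.00836 in the WT libraries, and Mmp3 over Timp1 was at 0.0747 ± 0.00156 in the libraries labelled KO against 0.197 ± 0.0118 in the WT libraries. These are ratios of transcripts, and activity of the proteins was not measured.

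**Figure D4:**
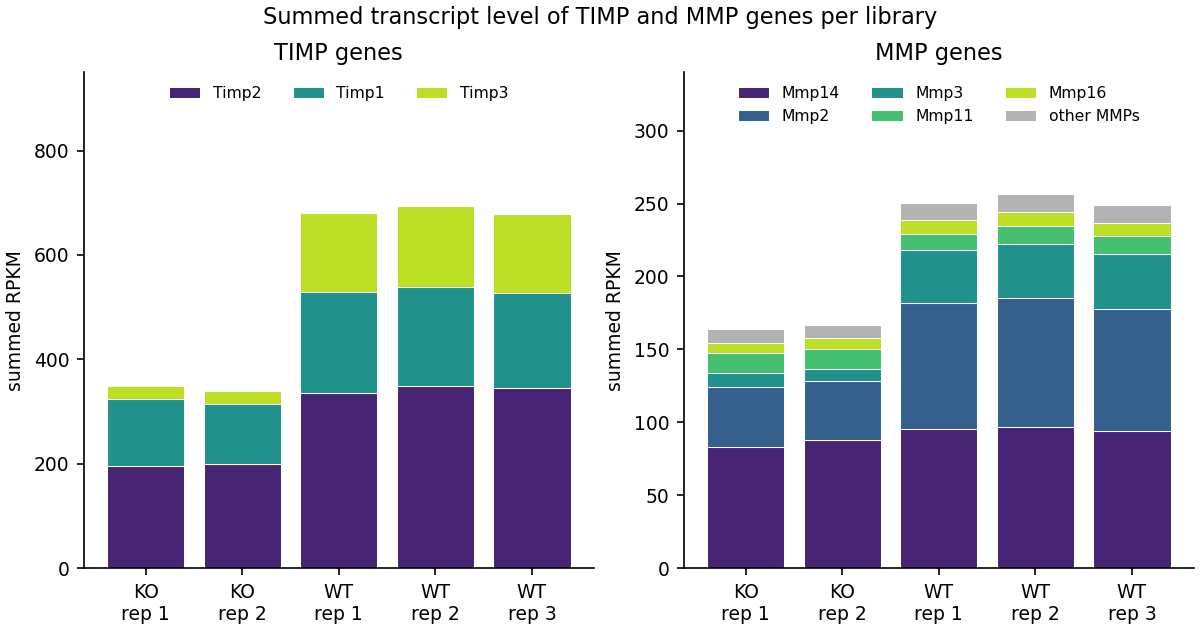
Stacked bars of summed RPKM in each library, labelled KO left of WT, for the TIMP genes on the left and the MMP genes on the right, each on its own axis from 0 and coloured by gene (Timp4, with 1 read in all, is too low to see). TIMPs came to 345 RPKM in the libraries labelled KO against 684 RPKM in WT and MMPs to 165 RPKM against 252 RPKM in WT, and the Timp3, Mmp2 and Mmp3 parts are visibly smaller in the libraries labelled KO.

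The ADAMTS genes moved in both directions. Of 19 genes, 12 were tested, 6 were higher, 4 were lower and 2 were not called, with a median log2 fold change of 0.42. Over all genes tested, 32.6% were higher and 32.6% lower. The procollagen N-proteinases, which cut the amino-terminal propeptide off procollagens so that fibrils can form, had 1 higher and 1 lower gene. Adamts2 was at 2.77 and 2.91 RPKM in the libraries labelled KO, against 9.31, 9.56 and 9.32 RPKM in the WT libraries, where it was 3.29-fold as high (log2 fold change -1.72, SE 0.0668, adjusted p = 1.9e-15). Adamts14 was at 4.62 and 5.41 RPKM in the libraries labelled KO, against 3.40, 3.37 and 3.00 RPKM in the WT libraries (log2 fold change 0.63, SE 0.0812, adjusted p = 7.2e-07). Neither gene's groups overlapped, so Adamts14 was the more abundant of the pair in both libraries labelled KO and Adamts2 in all 3 WT libraries. With the third member, Adamts3, which had at most 3 reads in a library, they summed to 7.87 ± 0.650 RPKM in the libraries labelled KO and 12.7 ± 0.311 RPKM in the WT libraries.

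The pair that cuts cartilage oligomeric matrix protein differed more. Adamts7 was at 6.83 and 6.95 RPKM in the libraries labelled KO, against 19.1, 17.7 and 18.2 RPKM in the WT libraries (log2 fold change -1.40, SE 0.0474, adjusted p = 1.7e-16). Adamts12 (chr15:11064773-11349232) was at 0.815 and 0.822 RPKM in the libraries labelled KO, against 0.0538, 0.129 and 0.0683 RPKM in the WT libraries (log2 fold change 3.32, SE 0.292, adjusted p = 1.9e-09). Both were far outside the spread of their groups, in opposite directions, and Adamts7 stayed the more abundant in every library. Their sum was 7.71 ± 0.0882 RPKM in the libraries labelled KO and 18.4 ± 0.690 RPKM in the WT libraries.

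The proteoglycanases, which cut aggrecan and versican, numbered 7, of which 4 were tested, 2 were higher, 1 was lower and 1 was not called. Adamts1, which cuts versican, was at 19.0 and 19.3 RPKM in the libraries labelled KO, against 13.8, 14.0 and 14.3 RPKM in the WT libraries (log2 fold change 0.45, SE 0.0437, adjusted p = 9.3e-09). Adamts5, the main aggrecanase of mouse cartilage, was at 1.06 and 1.25 RPKM in the libraries labelled KO, against 0.390, 0.419 and 0.365 RPKM in the WT libraries, a 2.95-fold difference (log2 fold change 1.56, SE 0.135, adjusted p = 1.5e-09). These higher genes are neighbours, 55.0 kb apart on chromosome 16, where the tested genes within 5 Mb of Adamts1 had a median log2 fold change of 0.03. Adamts9, a versican-cutting enzyme, was at 4.63 and 5.54 RPKM in the libraries labelled KO, against 12.1, 12.5 and 12.7 RPKM in the WT libraries, where it was 2.44-fold as high (log2 fold change -1.29, SE 0.0621, adjusted p = 8.2e-14). Adamts4, another aggrecanase, did not overlap between the groups but was not called (log2 fold change -0.36, adjusted p = 0.117). Summed over the 7 genes the level was 25.9 ± 1.09 RPKM in the libraries labelled KO and 27.5 ± 0.562 RPKM in the WT libraries.

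Adamts6 and Adamts10, a pair of close relatives linked to fibrillin microfibrils, rose together. Adamts6 was at 3.85 and 3.61 RPKM in the libraries labelled KO, against 2.63, 2.59 and 2.65 RPKM in the WT libraries (log2 fold change 0.51, SE 0.0785, adjusted p = 7.2e-06). Adamts10 was at 5.26 and 4.35 RPKM in the libraries labelled KO, against 3.21, 3.40 and 3.24 RPKM in the WT libraries (log2 fold change 0.55, SE 0.0847, adjusted p = 7.7e-06). Neither overlapped between the groups, and their sum was 8.53 ± 0.808 RPKM in the libraries labelled KO and 5.91 ± 0.0794 RPKM in the WT libraries.

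Adamts16 (chr13:70727798-70841845), a protease of developing kidney and gonad, had the largest fall of the members. It was at 0.0060 and 0.0299 RPKM in the libraries labelled KO, against 0.621, 0.564 and 0.670 RPKM in the WT libraries. The KO label had 1 and 5 reads of it and the WT libraries 367 in all, a depth-corrected ratio of WT over labelled KO of 34.3 (95% exact interval 15.6 to 94.1, counting error only). Its fitted log2 fold change depended on the pseudocount, at -4.95 with 1, -5.19 with 0.5 and -3.88 with 5, and it was -2.61 on log2(RPKM + 0.1). The adjusted p was 1.7e-10. Adamts16 passed the filter only through the WT group, where it was high, so its call is a description. Adamts18 was called in neither direction (log2 fold change 0.39, adjusted p = 0.375).

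The ADAMTS-like genes, which bind microfibrils without cutting, had 4 of 5 members tested, of which 1 was higher, 2 were lower and 1 was not called. All genes tested gave 32.6% higher and 32.6% lower. Adamtsl5 was at 11.1 and 11.5 RPKM in the libraries labelled KO, against 19.5, 18.9 and 20.03 RPKM in the WT libraries (log2 fold change -0.78, SE 0.0537, adjusted p = 3.8e-11). Adamtsl4, which supports the fibres that hold the lens, was at 3.68 and 4.47 RPKM in the libraries labelled KO, against 6.29, 6.07 and 6.82 RPKM in the WT libraries (log2 fold change -0.65, SE 0.0828, adjusted p = 6.0e-07). Adamtsl3 was the higher one, at 8.22 and 8.24 RPKM in the libraries labelled KO, against 6.57, 5.82 and 5.91 RPKM in the WT libraries (log2 fold change 0.44, SE 0.0550, adjusted p = 4.3e-07). The groups overlapped for none of these 3, and Adamtsl1, near 0.1 RPKM, overlapped and was not called.

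The 17 members that were not tested reached at most 16 reads or 0.0665 RPKM in any library. Those with reads were Mmp1a, Mmp12, Mmp21, Mmp25, Timp4, Adamts3, Adamts8, Adamts15, Adamts17, Adamts20 and Adamtsl2, and those at 0 throughout were Mmp7, Mmp8, Mmp20, Mmp27, Adamts13 and Adamts19. They include the neutrophil collagenase (Mmp8), the macrophage elastase (Mmp12), the enamel protease (Mmp20) and the von Willebrand factor protease (Adamts13). Markers of other cells were looked at as well. Of 10 macrophage and neutrophil markers 7 were under 0.1 RPKM in all libraries. The 10 summed to between 1.79 and 1.88 RPKM under the KO label and between 1.94 and 2.33 RPKM in the WT libraries. Most of this sum was Cd68, which was not called (log2 fold change -0.46, adjusted p = 0.0563). Csf1r, the only other one tested, was higher (log2 fold change 1.99, adjusted p = 7.5e-04). Endothelial markers summed to at most 0.435 RPKM and epithelial markers to at most 0.478 RPKM in the libraries labelled KO, against at most 0.222 and 0.196 RPKM in the WT libraries. Of 3 endothelial markers tested, Kdr was higher (log2 fold change 4.12) and 2 were not called. Epcam, the 1 epithelial marker tested, was higher (1.69). Kdr and Epcam passed the filter only through the KO group, where they were high. Chondrocyte markers summed to between 10.2 and 10.6 RPKM under the KO label and between 14.3 and 14.8 RPKM in the WT libraries, nearly all of it Sox9, at 9.29 and 9.80 RPKM under the KO label and 14.0, 14.4 and 14.3 RPKM in the WT libraries. The cartilage matrix genes Col2a1 (log2 fold change 2.90) and Acan (2.30), both under 0.3 RPKM, were higher, so of 5 tested chondrocyte markers 2 were higher and 1 was lower. As 32.6% of all genes tested were higher and 32.6% lower, these marker counts are a description. Osteoblast markers summed to between 16.9 and 18.4 RPKM under the KO label and between 22.2 and 23.1 RPKM in the WT libraries, nearly all of it Runx2. Their part in the members' differences was not tested.

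Some members lie in stretches of chromosome whose other genes also differed between the lines. The tested neighbours within 5 Mb had a median log2 fold change of -0.36 around Timp2, -0.27 around Timp3, -0.31 around Mmp19, -0.29 around Mmp11, -0.28 around Adamtsl5, 0.28 around Adamts9 and 0.27 around Adamts10. With the neighbours' median taken off each library, the log2 fold change was -0.43 for Timp2, -2.29 for Timp3, -0.50 for Adamtsl5, 0.30 for Adamts10 and 0.47 for Mmp11, and all 5 remained called in the same direction. The calls of Mmp14 (log2 fold change -0.07, adjusted p = 0.148) and Mmp19 (-0.11, adjusted p = 0.464) were lost. For Timp2 and Adamts10 the difference was then 0.54 times as large on the log2 scale.

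The genes that activate, bind, share substrates with or control these enzymes changed in both directions. Of 86 such genes in the table, from 8 lists, 70 were tested and 62 were called (88.6%, against 65.3% of all genes), 30 higher and 32 lower under the KO label. Of the 30, 4 (Serpine2, Serpinb2, Comp and Vwf) passed the filter on low values only through the KO group, where they were high, so the share called is a description. Of all genes tested, 32.6% were higher and 32.6% lower, and the counts of each list below stand beside those shares. In the plasminogen system, whose protease plasmin activates several MMP precursors, 9 of 13 genes were tested, 5 were higher and 4 lower. Plaur, the receptor that holds urokinase at the cell surface, was at 109.7 and 100.3 RPKM in the libraries labelled KO, against 188, 186 and 196 RPKM in the WT libraries (log2 fold change -0.85, adjusted p = 8.3e-14). Plat, the tissue plasminogen activator, was at 32.6 and 31.3 RPKM in the libraries labelled KO, against 16.9, 15.6 and 15.4 RPKM in the WT libraries (log2 fold change 1.01, adjusted p = 2.3e-13). Both were clear of overlap, in opposite directions. Serpinb2, an inhibitor of both plasminogen activators, had 218 reads under the KO label and 1 in the WT libraries, a depth-corrected ratio of 389 (95% exact interval 69.1 to 15426). Of the proprotein convertases, Pcsk6 was higher (log2 fold change 1.13, adjusted p = 1.6e-05), and Pcsk7 (-0.55) and Furin (-0.10, adjusted p = 0.0456) were lower. The Furin call was lost on leaving out KO replicate 1 or any of the WT libraries (adjusted p between 0.0809 and 0.636) and Furin was higher with the neighbours' median taken off (0.11, adjusted p = 0.0378).

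Surface partners and scavengers had 10 of 13 genes tested, 4 higher and 6 lower, with a median log2 fold change of -0.25. The thrombospondins, which bind MMP2 and carry it to the scavenger receptor LRP1, stood on opposite sides. Thbs2 was at 26.3 and 26.2 RPKM in the libraries labelled KO, against 141, 142 and 141 RPKM in the WT libraries (log2 fold change -2.42, adjusted p = 1.0e-22). Thbs1 was at 361 and 378 RPKM in the libraries labelled KO, against 170, 174 and 176 RPKM in the WT libraries (log2 fold change 1.10, adjusted p = 5.7e-16). Lrp1 itself, which also takes up TIMP3 and several ADAMTS enzymes, was at 92.2 and 102 RPKM in the libraries labelled KO, against 169, 166 and 171 RPKM in the WT libraries (log2 fold change -0.79, adjusted p = 1.9e-12). No pair of groups overlapped among these 3 genes. Cd44 (-0.46), Bsg, which induces MMPs in neighbouring cells (-0.33), and Sdc1 (-0.16) were lower and the tetraspanin Cd151 (0.69) was higher on the log2 scale.

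Of the ADAM genes, 11 of 12 were tested, 7 were higher, 2 were lower and 2 were not called, with a median log2 fold change of 0.10. The list held 9 ADAMs with a catalytic site, which can shed membrane proteins, and of these 5 were higher, 1 was lower and 2 were not called, while Adam11, Adam22 and Adam23, which have no catalytic site and are not proteases, gave 2 higher and 1 lower. Adam19 was at 17.3 and 16.9 RPKM in the libraries labelled KO, against 4.87, 4.97 and 5.002 RPKM in the WT libraries (log2 fold change 1.80, adjusted p = 3.1e-18). Adam9 (0.46) was higher too and Adam10 was lower (-0.20), and of the genes without a catalytic site Adam23 was higher (2.06), all on the log2 scale. With the neighbours' median taken off, Adam9 was no longer called (log2 fold change -0.0377, adjusted p = 0.439) and Adam12, at 0.10 before (adjusted p = 0.0279), was lower (-0.27, adjusted p = 5.3e-05). Of the astacin proteases and their enhancers, which remove the carboxy-terminal propeptide of procollagen, 4 of 7 were tested, 0 were higher, 2 were lower (Tll1, -0.39, and Pcolce2, -0.29) and 2 were not called, among them Pcolce at 207 and 204 RPKM in the libraries labelled KO, against 218, 222 and 216 RPKM in the WT libraries (adjusted p = 0.0532). Pcolce2 lost its call without KO replicate 2 (adjusted p = 0.0787). Of the cathepsins and cystatins 8 of 9 were tested, 5 were higher and 3 were lower, with a median of 0.17. Ctsk, the collagen-cutting cathepsin, was at 1.63 and 1.59 RPKM in the libraries labelled KO, against 10.5, 11.4 and 11.9 RPKM in the WT libraries (log2 fold change -2.79, adjusted p = 1.4e-15). Ctsz (0.99), Ctsl (0.46), Ctsd (0.18) and Cst3 (0.15) were higher and Ctsb (-0.30) and Cstb (-0.24) were lower, and the Cst3 call was lost without KO replicate 1 or 2 or WT replicate 2 (adjusted p between 0.0864 and 0.117). With the neighbours' median taken off Ctsd was at -0.15 (adjusted p = 0.0028) and Cstb at 0.0538 (adjusted p = 0.464).

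The proteoglycan and microfibril substrates had 12 of 16 genes tested, 6 higher and 6 lower, with a median log2 fold change of 0.60. Bgn, the small proteoglycan biglycan, was at 827 and 893 RPKM in the libraries labelled KO, against 325, 332 and 314 RPKM in the WT libraries (log2 fold change 1.42, adjusted p = 2.3e-17). Relatives again stood on opposite sides: Fbn2 was higher (2.20) and Fbn1 lower (-0.76), and Nid2 was higher (3.02) and Nid1 lower (-0.81) on the log2 scale. Fbn1, the main fibrillin of adult microfibrils, was at 80.9 and 87.8 RPKM in the libraries labelled KO, against 142, 147 and 142 RPKM in the WT libraries, and Ltbp2 (-1.21) and Ltbp1 (-0.21), which bind fibrillin, were lower as well. Of the 14 transcription factors known to act on MMP promoters, all were tested, 3 were higher, 7 were lower and 4 were not called, with a median of -0.11. Over all genes tested 65.3% were called, 32.6% higher and 32.6% lower, so these counts are a description. Among the 7 AP-1 subunits of the list, 3 were higher, 3 were lower and Junb was not called. Fos (log2 fold change 1.02, adjusted p = 6.7e-04), Jund (0.65) and Fosb (0.30, adjusted p = 0.0303) were higher, and Fosl2 (-0.57), Jun (-0.34) and Fosl1 (-0.33) were lower. Fosb lost its call on leaving out either KO replicate or WT replicate 1 or 2 (adjusted p between 0.0668 and 0.277). Runx2 (-0.37), which acts on Mmp13, and Nfkb1 (-0.23) were lower, and Rela was not called (-0.03, adjusted p = 0.486). All 3 tested genes of ADAMTS maturation were lower (Furin, Fut8 at -0.24, and Pofut2, which adds the sugar that lets ADAMTS proteins leave the cell, at -0.49), with a median of -0.24.

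The neighbours' median moved other genes of these lists as well. Among those named, with it taken off, Bsg (log2 fold change -0.04, adjusted p = 0.468), Sdc1 (-0.10, adjusted p = 0.0863), Pcolce2 (-0.15, adjusted p = 0.109) and Fut8 (-0.05, adjusted p = 0.383) were no longer called, and Rela (-0.35, adjusted p = 7.4e-07) and Junb (-0.14, adjusted p = 0.0261) were called lower. Still called but smaller were Plat (0.51), Lrp1 (-0.47), Cd151 (0.37), Adam10 (-0.11), Jund (0.12), Pofut2 (-0.20) and Sox9 (-0.23), and larger were Tll1 (-0.99), Ltbp1 (-0.61), Runx2 (-0.72), Fosb (0.51) and Fosl1 (-0.64), all on the log2 scale. Over the lists together, between 23 and 30 genes were higher and between 30 and 32 lower in the alternatives tried.

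**Figure D5:**
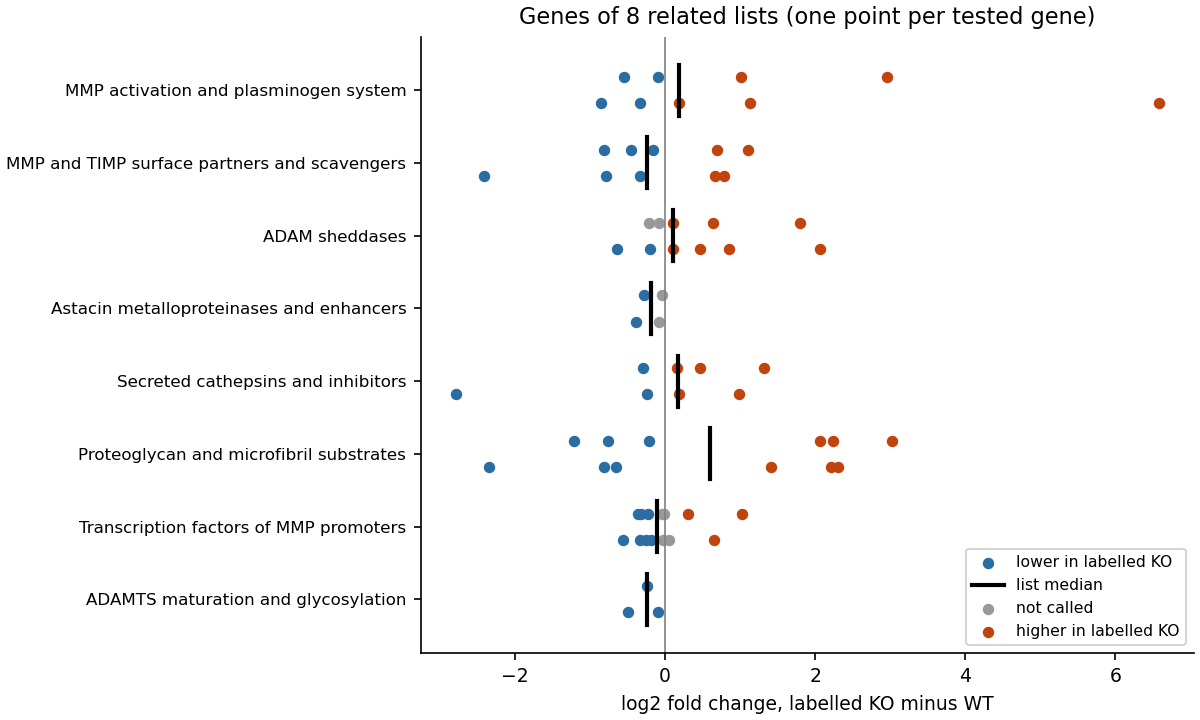
The log2 fold change (labelled KO minus WT) of each tested gene of the 8 related lists, 1 point per gene, coloured by its call, with the median of each list as a black bar. Points lie on both sides of 0 in most lists, from Ctsk at -2.79 to Serpinb2 at the far right, and only the 3 maturation genes and the astacin list have no gene called higher.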

How the data were processed

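Per the labels' protocols, mRNA was selected on poly-T beads, and Nextera XT libraries were run on a NextSeq. STAR, DESeq2 and mm10 are named, without versions, in the submitters' processing notes. The authors deposited 1 table with a signal value per gene and library (read counts divided by a size factor, from the values, of which all were whole reads within 0.1), RPKM values, and a DESeq2 comparison with a log2 fold change, its standard error, a Wald score and p-values, per the file headers.

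The signal values were tested with limma 3.58.1 (R 4.3.3, trended prior) on log2(value + 1), 2 KO against 3 WT libraries, for the 13062 genes with 10 or more in at least 2 libraries, with Benjamini-Hochberg adjustment. These fold changes understate those of low genes. Samples were grouped by their titles. Same-numbered libraries did not deviate together (correlations of -0.0093 and 0.0266). Genes at a mean of 1 RPKM or more, the inhibitors and the 12 members with the smallest adjusted p were named in full, and up to 4 genes per related list by adjusted p, plus those at 50 RPKM or more. Other related genes and the single markers were named after their values were seen. The members and lists were chosen with earlier results of these data known. Of 87 listed genes 86 were matched. The result of 1 gene of these lists is not reported here. Positions came from RefSeq (GRCm38.p6) and exon overlaps from GENCODE M21. Intervals cover counting error only. Alternatives were TMM scaling, other filters and pseudocounts, each library left out, a replicate block, count tests on the reads of 4 libraries with edgeR 4.0.16 and with DESeq2 1.42.0 (WT replicate 2 was left out, since its step of 0.989 is too near 1), the authors' comparison, RPKM, and removal of the median of neighbouring genes.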

Additional observations from a re-analysis of the deposited data

How the results depend on the processing

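The counts of calls were within 1.5 times of the reported ones in all 16 alternatives: between 9 and 12 members were higher and between 17 and 19 lower in the libraries labelled KO, and of the related genes between 23 and 30 were higher and between 30 and 32 lower. With the replicate number as a block, 11 members were higher and 19 lower, and of the related genes 28 were higher and 31 lower. The numbers did not pair the libraries. Of the 30 called members 25 held in every alternative that gave them a value, the other 5 being Mmp9, Mmp11, Mmp14, Mmp17 and Mmp19. Mmp9 was not called with the replicate block (adjusted p = 0.0818), by DESeq2 on 4 libraries (adjusted p = 0.0682) or in the authors' deposited table (adjusted p = 0.0868). Mmp17 was not called by DESeq2 on 4 libraries (adjusted p = 0.0707) but was called in the authors' deposited DESeq2 comparison (adjusted p = 0.0373). Mmp1b was called lower with the replicate block (adjusted p = 0.0157). With the neighbours' median taken off, some of the 70 related genes tested changed direction, to log2 fold changes of 0.11 for Furin, -0.0377 for Adam9, -0.15 for Ctsd, 0.0538 for Cstb, -0.27 for Adam12 and 0.10 for Bmp1 (not called before), as did the fibroblast marker Col1a2, to -0.0343. The cause was not tested. There were 2 libraries labelled KO, so the spread of that group rests on 1 difference, and 13 of the 52 members share exonic bases with another gene whose reads could not be separated. At this depth the 17 members that were not tested had too few reads for the main comparison, and no statement is made about a difference in them.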
